A study of Mus musculus with 8 samples.

Results

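ATAC-seq peaks at 9 genes of Ras and Jak signaling that are recurrently mutated in myeloid neoplasia were examined in bone marrow progenitors of female mice. The genes were Nras, Hras, Nf1, Ptpn11, Cbl, Cblb, Jak1, Jak2 and Jak3, and every peak that overlapped the gene body or 20 kb on either side of it was taken, whatever its height. The windows held 592 peaks of 501728 in 8 libraries. When overlapping peaks were merged across libraries, they formed 145 regions of 123260 in all. Progenitors without lineage markers but with c-Kit were sorted by Sca-1 into LSK+ cells, which carry it and include the blood stem cells, and LSK- cells, which lack it and are mostly committed myeloid progenitors. Both came from wild-type (WT) and XistΔ/Δ mice, with 2 libraries in each of the 4 groups. All mice were 4.5 months old and of the 129Sv4/Jae x B6 background, and about 10000 cells entered each reaction. XistΔ/Δ mice are labelled as lacking both copies of Xist, whose RNA coats and silences an X chromosome in females, after deletion by a Cre recombinase driven by the Vav1 promoter, which is active throughout the blood system. The study's methods call the libraries of a group biological replicates. How many mice each library came from is not given in the sources used here.

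Ras proteins, here Nras and Hras, are small GTPases that carry signals from cytokine and growth factor receptors to the MAP kinases. Ptpn11 encodes the phosphatase SHP2, which promotes Ras activation, and Nf1 encodes neurofibromin, which switches Ras off by speeding GTP hydrolysis. Cbl and Cblb are ubiquitin ligases that tag activated receptors and kinases for degradation. Jak1, Jak2 and Jak3 are tyrosine kinases bound to cytokine receptors. Jak2 serves the erythropoietin receptor, and Jak3 serves receptors that share the common gamma chain. Gain of function in Nras, Ptpn11 or Jak2, or loss of Nf1 or Cbl, drives myeloproliferative disease in patients and in mice.

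Lists held 29829 to 91590 peaks on chromosomes 1 to 19 and X, and the background pileup, a proxy for depth, was 0.482 to 3.87 fragments. LSK+ WT replicate 2 was the shallowest library and LSK- XistΔ/Δ replicate 1 the deepest. Matched by cell type and replicate number, the XistΔ/Δ library always had the higher background and the longer list. The deposited names give replicates 1 and 2 different run codes in every group, so replicate number and run cannot be told apart. As a check of the labels, the Xist promoter had a peak in all 4 WT libraries, at the 51.2 to 80.6 percentile. It had none in 3 XistΔ/Δ libraries and a peak at the 26.9 percentile in the library labelled LSK- XistΔ/Δ replicate 2. That peak goes against the label, so the genotype of this library is in doubt, and the genotype comparisons of pileup and promoter percentile are given with and without it. The Gata1 promoter, of the erythroid and megakaryocyte regulator, had a peak in all 4 LSK- libraries and in no LSK+ library. Of 7 LSK+ marker promoters 4 had the higher mean percentile in LSK+, and of 8 LSK- markers 6 in LSK-. The mean was higher in LSK- at 62.1% of 16256 protein-coding promoters, so these counts are a weak check. By mean percentile the LSK+ markers Mecom and Hoxa9 were higher in LSK-, and the LSK- markers Prtn3 and Klf1 in LSK+. These directions depend on the measure. The log2 difference in normalized pileup, LSK- minus LSK+, was -0.33 at Mecom, -0.17 at Hoxa9, -0.65 at Prtn3 and 0.03 at Klf1. Ly6a, which encodes the Sca-1 used for the sort, did not follow the labels: its promoter had a peak in 2 of 8 libraries, at 10.8 in LSK+ WT replicate 1 and at 29.6 in LSK- XistΔ/Δ replicate 1. Of the 3 markers of T and B cells reported here, Cd3e and Cd79a had no promoter peak and Ms4a1 had one in 1 library. The summed percentile of these 3 markers was 0.0 to 41.9 in LSK+ and 0.0 in all LSK- libraries, and its part in the results was not tested.

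Each peak is described by its percentile, its rank by -log10 p within the library's own list (100 for the strongest peak, 0 where no peak was listed), and by the fragments piled up at its summit. Of the 145 regions, 13 were promoters of the 9 genes (summit within 3 kb of a start site), 32 were promoters of neighboring genes and 100 were distal. All 9 genes had a promoter region with a peak in all 8 libraries, as did 74.6% of protein-coding genes with a promoter peak in any library. Of the other regions, 5 of 32 neighboring promoters and 11 of 100 distal regions had one in all 8. Of the distal regions, 74 lay in introns, 12 upstream, 12 downstream and 2 in exons. A peak in only 1 library was seen at 38 regions, and 22 of these were in LSK- XistΔ/Δ replicate 1, the deepest library. The genes differed in how many regions surrounded them. Jak1 had 33 regions, 29 of them distal, Nf1 had 29, Cblb 22, Cbl 19, Jak3 14, Ptpn11 and Jak2 11 each, Hras 4 and Nras 2. Gene length differs as well, from 4901 bp for Hras to 241920 bp for Nf1. Nras and Hras were thus marked almost by their promoters alone: the only distal region of Nras, 17.1 kb upstream, had a peak in 2 libraries, and so did that of Hras, 12.8 kb upstream, in LSK- replicate 1 of both genotypes each time.

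The sequences shown first are those of the regions at which the cell types separated. They comprise the 250 bases upstream of the Jak3 start, the 6 distal regions with a peak in all 4 libraries of one cell type and none of the other, and the other pair of Jak1 introns that changed in the blocked test described below. Distal windows are the 300 bases around the summit. All are plus-strand mm10 sequence, none overlaps an annotated exon, and capitals mark matches, on either strand, to the letters listed after them.

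Jak3, 250 bases before the start, chr8:71676046-71676295: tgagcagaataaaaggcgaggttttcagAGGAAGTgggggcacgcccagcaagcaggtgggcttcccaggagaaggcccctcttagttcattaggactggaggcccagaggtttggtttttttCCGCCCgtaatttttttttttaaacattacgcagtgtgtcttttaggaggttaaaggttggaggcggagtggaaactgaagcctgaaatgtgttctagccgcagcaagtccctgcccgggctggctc
Jak1 intron, 65.4 kb past the start, LSK+ libraries only, chr4:101199699-101199998: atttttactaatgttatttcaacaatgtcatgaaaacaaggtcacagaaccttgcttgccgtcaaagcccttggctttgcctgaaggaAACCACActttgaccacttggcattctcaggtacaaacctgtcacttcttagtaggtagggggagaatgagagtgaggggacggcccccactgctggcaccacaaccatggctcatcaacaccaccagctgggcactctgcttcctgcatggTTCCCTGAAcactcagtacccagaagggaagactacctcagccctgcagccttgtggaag
Jak1 intron, 88.9 kb past the start, LSK- libraries only, chr4:101176235-101176534: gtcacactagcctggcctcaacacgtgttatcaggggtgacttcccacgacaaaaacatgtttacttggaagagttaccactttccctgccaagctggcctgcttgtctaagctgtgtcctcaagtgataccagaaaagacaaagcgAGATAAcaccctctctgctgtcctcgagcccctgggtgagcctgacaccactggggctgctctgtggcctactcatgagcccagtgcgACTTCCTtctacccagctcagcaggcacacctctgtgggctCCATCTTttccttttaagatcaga
Jak1 intron, 109.5 kb past the start, higher in LSK-, chr4:101155613-101155912: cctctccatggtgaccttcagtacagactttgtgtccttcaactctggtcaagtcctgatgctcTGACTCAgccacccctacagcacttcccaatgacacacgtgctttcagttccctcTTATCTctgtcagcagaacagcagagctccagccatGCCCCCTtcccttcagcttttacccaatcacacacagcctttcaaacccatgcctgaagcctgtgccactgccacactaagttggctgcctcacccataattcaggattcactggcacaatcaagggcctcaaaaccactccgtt
Jak1 intron, 82.5 kb past the start, higher in LSK+, chr4:101182594-101182893: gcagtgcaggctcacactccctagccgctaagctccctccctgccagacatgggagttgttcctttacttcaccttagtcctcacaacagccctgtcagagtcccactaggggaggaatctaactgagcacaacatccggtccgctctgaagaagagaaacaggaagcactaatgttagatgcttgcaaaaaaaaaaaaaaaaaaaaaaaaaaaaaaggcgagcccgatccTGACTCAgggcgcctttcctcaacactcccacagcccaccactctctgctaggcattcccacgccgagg
Ptpn11 intron, 41.9 kb past the start, LSK- libraries only, chr5:121149360-121149659: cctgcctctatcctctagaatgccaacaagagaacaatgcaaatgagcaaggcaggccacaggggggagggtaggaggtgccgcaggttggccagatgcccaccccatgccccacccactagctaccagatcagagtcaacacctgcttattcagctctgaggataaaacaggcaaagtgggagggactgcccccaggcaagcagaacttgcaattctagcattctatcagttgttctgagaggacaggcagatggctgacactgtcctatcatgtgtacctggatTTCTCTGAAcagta
Ptpn11, 5.6 kb upstream, LSK- libraries only, chr5:121196809-121197108: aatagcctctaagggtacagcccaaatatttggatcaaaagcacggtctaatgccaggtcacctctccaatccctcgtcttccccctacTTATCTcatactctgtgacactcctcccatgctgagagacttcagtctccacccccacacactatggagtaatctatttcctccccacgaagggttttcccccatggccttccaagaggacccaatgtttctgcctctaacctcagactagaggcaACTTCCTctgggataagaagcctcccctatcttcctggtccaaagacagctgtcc
Jak2, 10.1 kb upstream, LSK- libraries only, chr19:29241557-29241856: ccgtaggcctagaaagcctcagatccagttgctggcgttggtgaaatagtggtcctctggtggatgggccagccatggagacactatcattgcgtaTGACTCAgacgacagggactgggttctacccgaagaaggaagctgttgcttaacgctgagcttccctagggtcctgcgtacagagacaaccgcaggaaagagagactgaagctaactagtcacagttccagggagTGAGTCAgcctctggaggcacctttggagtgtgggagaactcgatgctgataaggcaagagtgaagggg
Cblb intron, 7.2 kb past the start, LSK- libraries only, chr16:52038286-52038585: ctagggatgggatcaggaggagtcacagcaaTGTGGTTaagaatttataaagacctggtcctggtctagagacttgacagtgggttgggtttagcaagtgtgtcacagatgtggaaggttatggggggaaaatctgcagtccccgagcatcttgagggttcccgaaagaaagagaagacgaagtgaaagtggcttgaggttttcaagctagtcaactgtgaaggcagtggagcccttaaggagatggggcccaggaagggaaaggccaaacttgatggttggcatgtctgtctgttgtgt

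Letters were searched on both strands. ETS factors were represented by AGGAAGT and separately by CCGGAAG, and RUNX factors by TGTGGTT. The letters AGATAA stood for the GATA family of factors. AP-1 was represented by TGANTCA. STAT factors were represented by TTCNNNGAA, Sp and KLF factors by GGGCGG, YY1 by AAGATGG and CTCF by AGGNGGC. The Jak3 stretch held AGGAAGT and GGGCGG. The letters of the GATA family were found in the Jak1 windows at 88.9 and 109.5 kb and in the window 5.6 kb upstream of Ptpn11. All of these had a peak only or more strongly in LSK- cells. The other windows with peaks in LSK- only, in the Ptpn11 and Cblb introns and upstream of Jak2, held no GATA letters. A link between these letters and cell type was not tested. The Jak1 window at 65.4 kb, with peaks in LSK+ cells only, held the RUNX and STAT letters, and the window upstream of Jak2 held 2 AP-1 matches. These letters are common. GATA letters occurred in 24 of the 100 distal windows of the 9 genes (24.0%) and in 24.2% of all 90436 distal regions, the ETS letters AGGAAGT in 18.0% and 21.5%, RUNX in 11% and 14.8%, AP-1 in 10.0% and 12.3%, STAT in 9.0% and 9.21%, and CTCF in 15.0% and 22.7%. The remaining distal shares were 2.0% and 2.17% for CCGGAAG, 5.0% and 7.84% for Sp/KLF, and 7.0% and 5.55% for YY1. At promoters, GGGCGG was in the 300 bases around the summit of 8 of 9 genes, all but Nf1, and in 37.0% of all 32824 promoter regions, and CCGGAAG was in 3 of 9 (Nras, Nf1 and Ptpn11) and in 8.55%. The other promoter counts were 2 of 9 for CTCF (34.4% of all), 1 of 9 for RUNX (8.63%) and 0 of 9 for AGGAAGT (14.2%), GATA (13.6%), AP-1 (7.90%), STAT (7.37%) and YY1 (5.81%). The promoter counts took only the strongest promoter region of each of the 9 genes. The shares beside them were of all promoter regions, whatever their strength. The weaker promoter regions of Cbl, Jak2 and Jak3 were not counted, and none of them held the Sp and KLF letters. The sets are thus unlike, and no excess or lack at promoters can be read from these counts. A match is a description of the sequence and says nothing about binding.

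Outside Jak3, the promoters of these genes stood at the 66.9 percentile or higher in every list, and the lists hold distal peaks too. Jak3 stood at 12.0 to 70.1, so its range overlapped the lowest of the others. The median over libraries of the promoter percentile had a median of 92.7 over the 9 genes. It was 81.8 over 16256 protein-coding genes with a promoter peak in any library, with no peak as 0. Among protein-coding promoters of the same library Nf1 was ordinary, at or above 37.5% to 58.9% of them, and Ptpn11 at or above 51.5% to 60.6%. Jak2 was at or above 38.2% to 58.7% of them in replicate 1 and 74.5% to 85.3% in replicate 2. The median was 99.4 for Cblb, 97.8 for Cbl, 97.1 for Jak1, 93.3 for Nras, 92.7 for Hras, 91.0 for Jak2, 84.8 for Ptpn11, 77.2 for Nf1 and 62.7 for Jak3. Neighbors in this order overlapped in their ranges over libraries. Cblb ranged from 96.2 to 99.8, Cbl from 93.1 to 99.4 and Jak1 from 91.9 to 98.1, so that the ligases and Jak1 could not be ordered by their spread. Nf1, at 66.9 to 86.4, lay below the lowest value of Cbl, Cblb and Jak1 in every library. The Hras peak is shared with Lrrc56, which starts on the other side of it, and cannot be given to either gene.

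**Figure D1:**
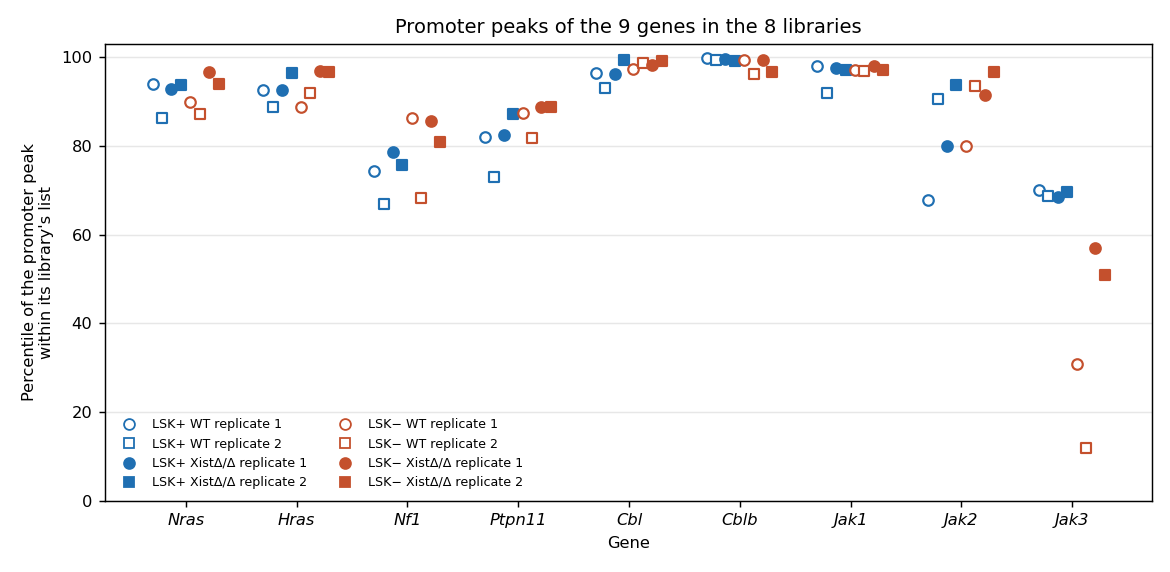
Percentile of the strongest promoter peak (vertical axis, 0 to 100 within each library's own list) of each gene in the 8 libraries. Each point is 1 library, open for WT and filled for XistΔ/Δ. Cbl, Cblb and Jak1 sit at 91.9 or higher in all libraries, and Jak3 at 68.6 to 70.1 in LSK+ and 12.0 to 56.9 in LSK- cells.

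The Jak3 promoter was the only one of the 9 at which the cell types did not overlap. In LSK+ cells its percentile was 70.1 and 68.7 (WT) and 68.6 and 69.7 (XistΔ/Δ), against 30.9 and 12.0 (WT) and 56.9 and 51.0 (XistΔ/Δ) in LSK- cells. The 4 LSK+ values lay close together, and every LSK- value lay below them. In bulk samples, fewer cells with an open promoter and less open chromatin per cell cannot be told apart. Among protein-coding genes, every LSK+ value exceeded every LSK- value at 1.9% and the reverse held at 1.73%. Mean percentiles by genotype (WT, then XistΔ/Δ) were 69.4 ± 1.00 and 69.1 ± 0.780 (SD, n = 2) for LSK+ and 21.4 ± 13.4 and 53.9 ± 4.21 (SD, n = 2) for LSK-. The mean difference, LSK- minus LSK+, was -31.6, with p = 0.0556 by the two-sided exact permutation test over 36 assignments, the smallest p this design allows. When each list was restricted to its strongest 29829 peaks, the length of the shortest list, the Jak3 promoter had a peak in all 4 LSK+ libraries, at 13.1 to 68.7, and in no LSK- library. The main promoter region (chr8:71676003-71677087) began upstream and covered the first exon, whose untranslated part held the summit. It had 51, 35, 70 and 66 summit fragments in LSK+ WT replicates 1 and 2 and XistΔ/Δ replicates 1 and 2, and 26, 15, 75 and 34 in the LSK- libraries in the same order. The LSK- value of 75 came from the deepest library and overlapped the LSK+ values before normalization. In LSK- WT replicate 2 the peak at the 12.0 percentile belonged to a second, weaker Jak3 promoter region, and the main one stood at 9.7.

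At Jak2, the promoter percentile went with the replicate number. It was 67.9, 79.9, 80.0 and 91.4 in replicate 1 of LSK+ WT, LSK+ XistΔ/Δ, LSK- WT and LSK- XistΔ/Δ, and 90.6, 93.8, 93.5 and 96.6 in replicate 2. In each group replicate 2 was higher, although replicate 2 had the shorter list each time. Within either replicate number LSK- was above LSK+ of the same genotype. The cell type difference was 7.32 percentile units (p = 0.278, two-sided exact permutation test). For the other 7 genes the cell type difference of the promoter percentile was between -1.53 (Cblb) and 6.45 (Nf1), with exact permutation p from 0.111 (Ptpn11) to 0.944 (Nras).

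The fragment pileup at the summit was compared across the 21360 regions with a peak in all 8 libraries by limma, after quantile normalization of log2 values, with Benjamini-Hochberg adjustment over all of them. The 9 windows contributed 25 of these regions. Between cell types none of the 25 passed an adjusted p of 0.05, where 4.96% of all regions did. By limma 8 of the 25 had an unadjusted p under 0.05. The share of all regions under that threshold was not computed, so no excess can be read from this count. Libraries of the same replicate number deviated together in every pair of groups, and replicate number was therefore taken as a pairing. The labels state no pairing. Replicate number also went with run and with list length, and these cannot be told apart. With the replicate number as a block in the limma fit, 9 of the 25 passed, beside 29.0% of all regions. Of these 9, 5 were higher in LSK- (13.8% of all regions) and 4 higher in LSK+ (15.1% of all regions). Without LSK- XistΔ/Δ replicate 1, the deepest library, the blocked count fell to 5, beside 17.1% of all regions. Without each of the other libraries in turn it ran from 6, beside 16% of all regions (without LSK- WT replicate 1), to 12, beside 31.8% (without LSK- XistΔ/Δ replicate 2), and the share of all regions ran from 13.7% to 31.8%. The promoters of Jak3 and Cblb, the Jak1 intron 109.5 kb past its start and the promoter of Insl6 were the 4 regions called whichever of the 8 libraries was left out, and the sign at all 9 was the same each time. Values below are log2 differences, LSK- minus LSK+, with the standard error (SE) of the unblocked fit, and the adjusted p is given for both fits. The absolute difference had a median of 0.35 over the 25 regions and 0.28 over all regions.

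Of the 9 promoters, those of Jak3 and Cblb passed with the block. The Jak3 promoter differed by -0.87 ± 0.23 (SE, 1.83-fold higher in LSK+), with an adjusted p of 0.0633 without and 0.0013 with the block in limma. The Cblb promoter (chr16:52030968-52032279), among the strongest peaks of each list, differed by -0.37 ± 0.15 (SE, 1.29-fold), with adjusted p of 0.183 and 0.00165. Its size depended on the scaling: without the block it was -0.0145 by log2 fold enrichment and -0.112 with median scaling. The same alternatives gave -0.49 and -0.982 at the Jak3 promoter. The intervals of the other 7 promoters included 0 in the unblocked fit. Their differences were -0.01 for Nras, 0.06 for Jak1, 0.16 for Hras, 0.23 for Cbl, 0.35 for Ptpn11, 0.40 for Nf1 and 0.40 for Jak2. The narrowest of these intervals, at Jak1, ran from -0.28 to 0.41, and the widest, at Jak2, from -0.55 to 1.34.

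Jak1 had regions that differed in opposite directions within one gene. The intronic region 109.5 kb past the start (chr4:101155280-101156111) had summit fragments of 38, 13, 82 and 62 in LSK+ WT replicates 1 and 2 and XistΔ/Δ replicates 1 and 2, and of 102, 33, 218 and 60 in LSK-. It differed by 0.89 ± 0.29 (SE, 1.85-fold higher in LSK-), with adjusted p of 0.117 without and 0.000704 with the block in limma. The region 82.5 kb past the start (chr4:101182458-101183268) had 53, 13, 70 and 39 fragments in LSK+ and 28, 8, 51 and 26 in LSK-, and differed by -0.86 ± 0.31 (SE, 1.82-fold higher in LSK+), with adjusted p of 0.155 and 0.00358. The second of these regions did not pass with the block without LSK- WT replicate 2 or without LSK- XistΔ/Δ replicate 1. Between them, 92.3 kb past the start, lay the second strongest distal region of the gene, which differed by -0.29 ± 0.32 (SE) and passed in neither fit.

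Presence and absence of peaks gave the clearest contrast in the same gene. The region 65.4 kb past the start (chr4:101199504-101200057) had a peak in all 4 LSK+ libraries, at percentiles of 73.6, 43.6, 74.9 and 57.2 with 47, 17, 71 and 34 fragments, and in no LSK- library. The region 88.9 kb past the start (chr4:101176095-101176625) had a peak in all 4 LSK- libraries, at 55.1, 30.5, 83.3 and 31.1 with 40, 18, 143 and 21 fragments, and in no LSK+ library. Both regions were picked for being listed in 1 cell type only, so their listing in shallow and deep libraries follows from that choice. The part of depth in it was not tested. A list without a peak does not mean that no fragment lay there, since the lowest summit listed held 5 to 13 fragments, depending on the library.

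**Figure D2:**
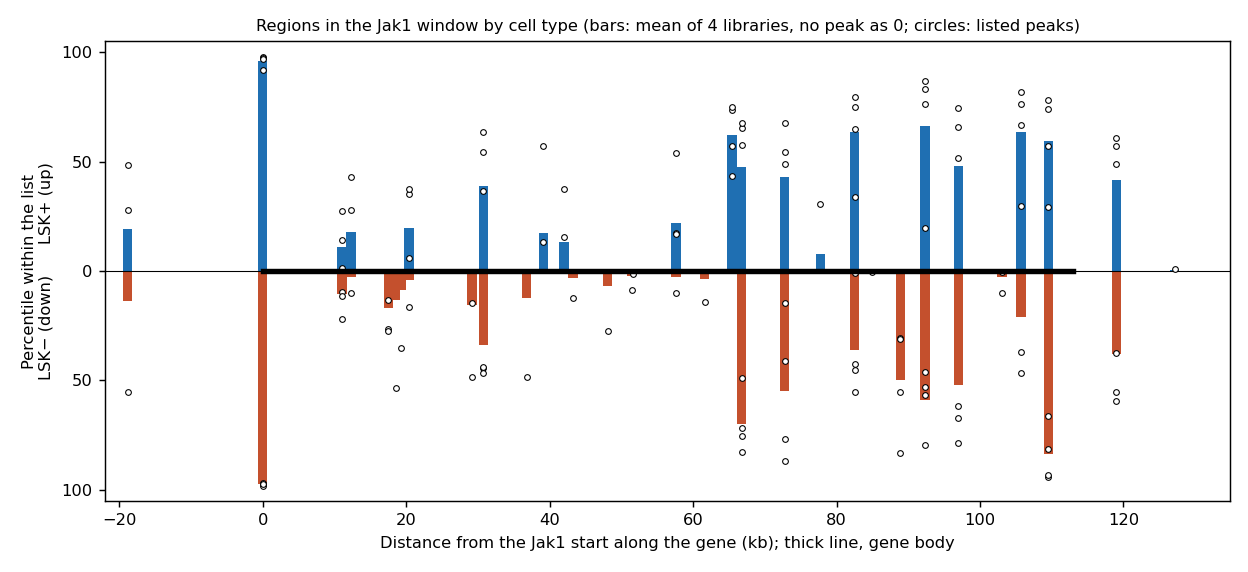
Regions in the Jak1 window by distance from the gene start (horizontal axis, kb along the gene), with the mean percentile of the 4 LSK+ libraries drawn upward and that of the 4 LSK- libraries downward (no peak as 0). Circles are single libraries with a listed peak. The bar at 65.4 kb has only an upward part and the bar at 88.9 kb only a downward part.

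In all, 6 of the 100 distal regions had a peak in all 4 libraries of one cell type and in none of the other. The 5 with peaks in LSK- only (5.0% of 100, beside 2.43% of all distal regions) were at Ptpn11 (in the intron 41.9 kb past the start and 5.6 kb upstream), Cblb, Jak1 and Jak2. The Jak1 intron at 65.4 kb was the 1 with peaks in LSK+ only (1.0%, beside 0.63% of all distal regions). At the Ptpn11 intron (chr5:121149346-121149786) the LSK- percentiles were 66.5, 49.3, 85.8 and 34, with 34, 19, 126 and 18 fragments. At the region upstream of Ptpn11 (chr5:121196738-121197362) they were 36.6, 30.2, 56.3 and 72.2, with 26, 15, 68 and 42 fragments. By the way these 5 regions were selected, each LSK- library listed all of them and no LSK+ library any, whatever the length of its list. The part of depth in these listings was not tested. The region 10.1 kb upstream of Jak2 (chr19:29241613-29241906) stood at 10.7, 14.2, 34.9 and 61.7, and the Cblb intron 7.2 kb past the start (chr16:52038306-52038562) at 11 to 24.2, so the latter was a weak peak in every LSK- library. No distal region of the 9 genes had a peak in all 4 XistΔ/Δ libraries and no WT library, as 0.51% of all distal regions did, and none had the reverse, which 0.0% did.

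Counting all 145 regions, every LSK- percentile exceeded every LSK+ percentile at 8 (5.52%, beside 3.57% of all regions) and the reverse held at 4 (2.76%, beside 2.05%). Beyond those named above, LSK- was higher at the Cblb intron 29.2 kb past the start, at the region 15.4 kb upstream of Jak3, which lies within Unc13a, and at the promoter of B3gnt3 downstream of Jak3, which had peaks in LSK- libraries only. LSK+ was higher at the Jak2 intron 13.8 kb past the start, with 44.4, 11.4, 63.4 and 30.5 in LSK+ and a single LSK- peak at 0.9, and at the promoter of Rab11fip4 downstream of Nf1. These regions were picked for not overlapping, so they do not describe a gene as a whole. The strongest distal region of Jak2, in an exon 19.6 kb past the start, went the other way from the intron. It stood at 20.7, 0.0, 61.7 and 39.8 in LSK+ and at 74.3, 2.0, 84.0 and 48.7 in LSK-.

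**Figure D3:**
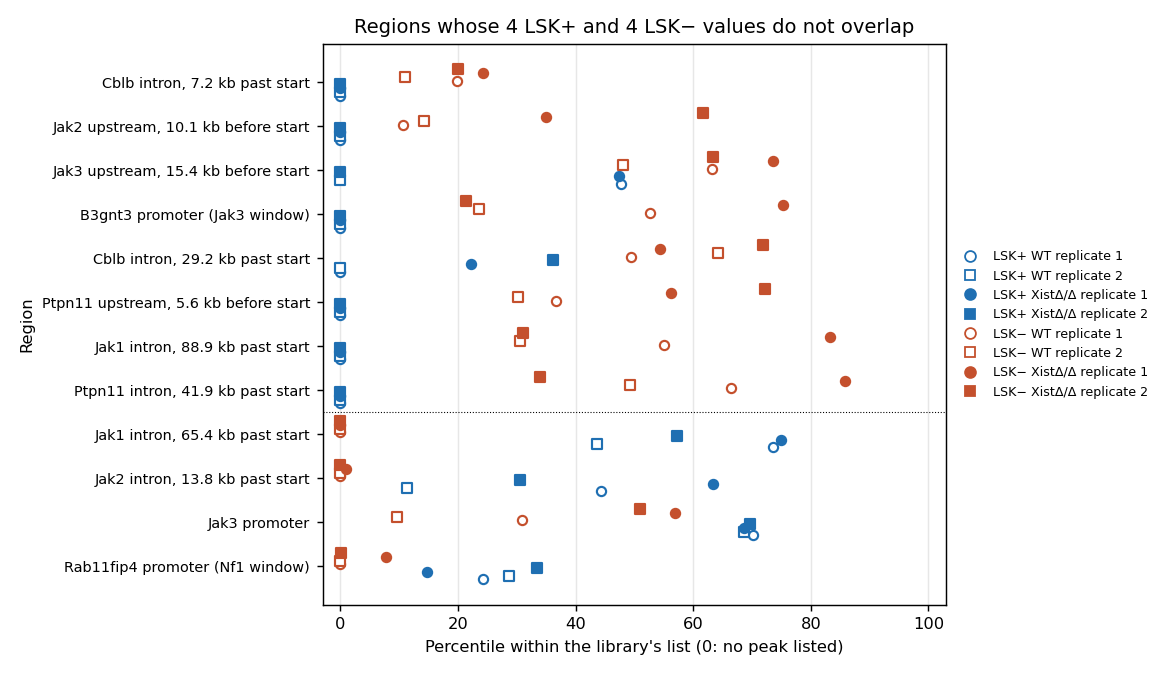
Percentile in each of the 8 libraries (horizontal axis, 0 where no peak was listed) of the 12 regions whose LSK+ and LSK- values do not overlap. The 8 regions above the dotted line are higher in LSK- and the 4 below it in LSK+, with the Jak3 promoter at 68.6 to 70.1 in all LSK+ libraries.

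The other regions that passed in the blocked fit lay at Nf1, Cblb, Jak2 and Jak3. The strongest distal region of Nf1, 180.4 kb past its start (chr11:79519914-79520367), overlaps Evi2 and Evi2b, genes that lie within Nf1, and had percentiles of 90.4, 64.3, 90.4 and 83.7 in LSK+ and 75.4, 59.5, 75.2 and 79.8 in LSK-. It differed by -0.61 ± 0.25 (SE, 1.53-fold higher in LSK+), with adjusted p of 0.207 without and 0.0156 with the block in limma. At Cblb the intronic region 30 kb past the start (chr16:52060733-52061667) differed by 0.64 ± 0.36 (SE), with adjusted p of 0.357 and 0.0112, next to the region at 29.2 kb in which LSK- was also higher. The region 14.7 kb upstream of Jak2 (chr19:29236772-29237386) differed by 1.02 ± 0.34 (SE, 2.03-fold higher in LSK-), with adjusted p of 0.124 and 0.00157. It held 13, 8, 18 and 12 summit fragments in LSK+ libraries and 29, 11, 113 and 16 in LSK- libraries, so the groups overlapped before normalization and the highest value came from the deepest library. The promoter of Insl6, downstream of Jak2, differed by 0.96 ± 0.29 (SE), with adjusted p of 0.0983 and 0.00108. The region 33.6 kb past the Jak3 start (chr8:71709698-71710241), which lies in Fcho1, differed by 0.77 ± 0.24 (SE), with adjusted p of 0.104 and 0.00487, opposite in sign to the Jak3 promoter. Apart from the Insl6 promoter, each of these regions lost its blocked call without at least 1 library, and those at Nf1, Jak2 and Jak3 lost it without LSK- XistΔ/Δ replicate 1. By log2 fold enrichment, without the block, their differences were smaller: -0.283 (Nf1), 0.193 (Cblb), 0.355 (Jak2), 0.688 (Insl6 promoter) and 0.292 (Jak3). At the Jak1 introns 109.5 and 82.5 kb past the start that measure gave 0.884 and -0.628.

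**Figure D4:**
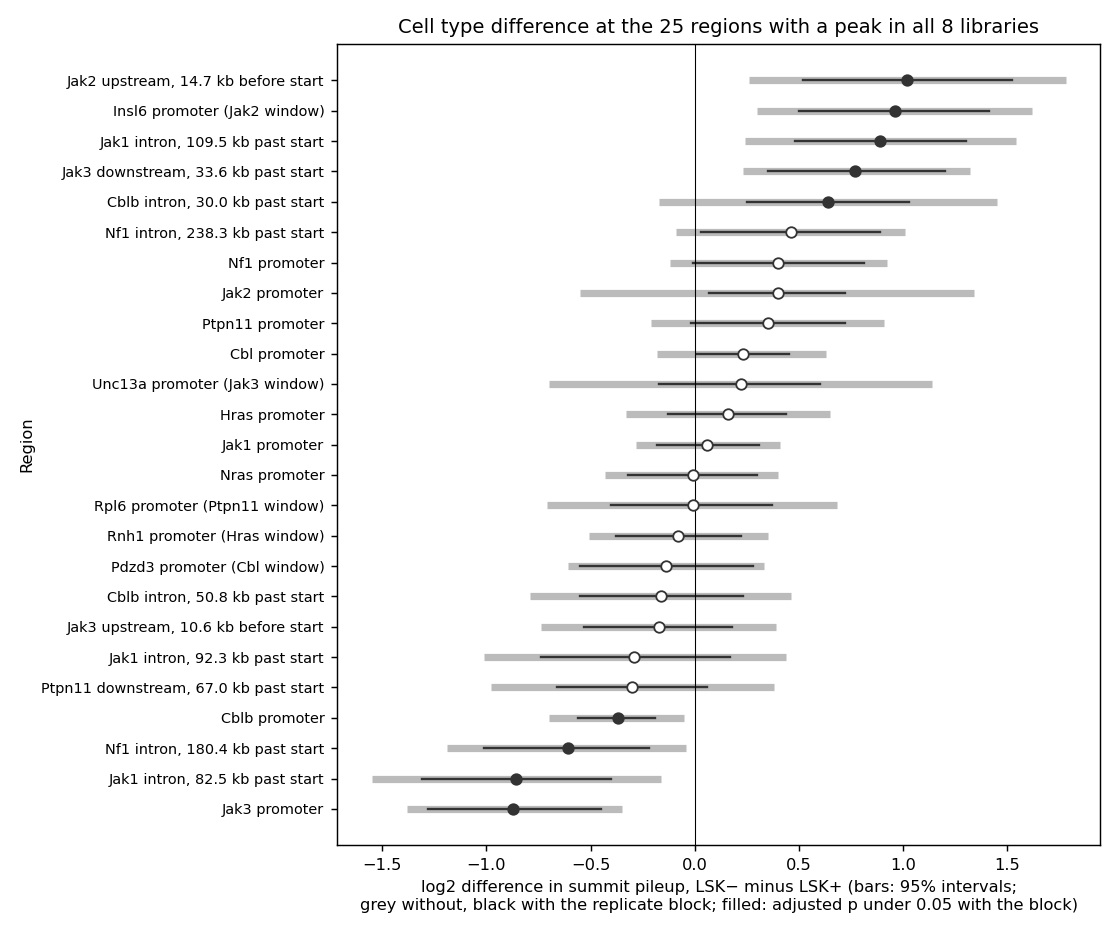
Difference in log2 summit pileup, LSK- minus LSK+ (horizontal axis), at the 25 regions with a peak in all 8 libraries. Points are estimates, grey bars are 95% intervals of the unblocked fit, black lines those with the replicate block, and filled points had an adjusted p under 0.05 with the block. The estimates run from -0.87 at the Jak3 promoter to 1.02 upstream of Jak2.

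Several strong distal regions with a peak in all 8 libraries did not pass between cell types in either fit of all libraries. With these standard errors, that does not show equal levels. The region 67.0 kb past the Ptpn11 start, downstream of the gene (chr5:121124149-121124688), was at 64.3 to 97.9 in all libraries and differed by -0.30 ± 0.30 (SE). The Cblb intron 50.8 kb past the start (chr16:52081701-52082384), at 59 to 93.1, differed by -0.16 ± 0.28 (SE). The region 10.6 kb upstream of Jak3 (chr8:71665025-71666044), at 70.3 to 85.5 and within Unc13a, differed by -0.17 ± 0.25 (SE), and the Nf1 intron 238.3 kb past the start by 0.46 ± 0.24 (SE). At Cbl the strongest distal regions had peaks in 7 libraries and none in LSK+ WT replicate 2, in an intron 20.4 kb past the start (chr9:44213425-44214064, 36 to 82.9 where listed) and downstream, 103.8 kb past the start (13.4 to 52.9 where listed). At Jak2 an exonic region 19.6 kb past the start (chr19:29271138-29271567) likewise had a peak in all but that library, at 2.0 to 84.0.

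Between genotypes none of the 25 regions passed, without or with the block, where 0.00468% and 0.14% of all regions did. The log2 differences, XistΔ/Δ minus WT, ran from -0.23 at the Nf1 promoter to 0.25 at the region downstream of Ptpn11. Of the 25, none had an unadjusted p under 0.05 without the block and 1 did with it, and the share of all regions was not computed. The median half-width of the 95% interval was 0.57 without and 0.39 with the block. The differences at the 9 promoters were -0.23 (Nf1), -0.19 (Cblb), -0.11 (Ptpn11), -0.05 (Jak1), -0.05 (Jak3), 0.06 (Nras), 0.08 (Cbl), 0.16 (Jak2) and 0.18 (Hras). Within LSK+ and within LSK- cells, and for the difference between them, again none of the 25 passed in either fit. The largest interaction was at the Jak3 promoter, with -0.50 in LSK+ and 0.40 in LSK-, a difference of 0.90 that did not pass. Leaving out the library labelled LSK- XistΔ/Δ replicate 2, which has an Xist promoter peak, also left 0 of 25 called between genotypes, without and with the block.

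Percentiles were higher in XistΔ/Δ at 8 of the 9 promoters, by 1.51 (Jak1) to 16.1 (Jak3) units, with a difference of -0.0396 at Cblb. Restricting each list to its strongest 29829 peaks turned the direction at 4 of these 8, to -8.54 at Nf1, -3.94 at Ptpn11, -0.37 at Jak1 and -14.1 at Jak3. Without the library labelled LSK- XistΔ/Δ replicate 2 the difference was 17.6 at Jak3 and 0.646 at Cblb, and the other 7 kept their direction. The mean percentile was higher in XistΔ/Δ at 95.9% of all protein-coding promoters, and the XistΔ/Δ lists were the longer ones in each pair of the same replicate number, so these differences are not particular to the 9 genes. Every XistΔ/Δ value exceeded every WT value at 1 of the 9 promoters, Hras. WT stood there at 92.6 and 88.9 (LSK+) and 88.9 and 91.9 (LSK-), and XistΔ/Δ at 92.7 and 96.5 (LSK+) and 96.9 and 96.6 (LSK-). The same held at 7.91% of protein-coding promoters, and the reverse at 0.00615%. Over all 145 regions, XistΔ/Δ was above WT in every library at 3 (2.07%, beside 3.23% of all regions), namely the Hras promoter, the Evi2a promoter inside Nf1 and a Jak1 intron 11 kb past the start, and WT was above XistΔ/Δ at 0 (0.00243% of all regions). The exact permutation p was 0.0556 for Hras and for Ptpn11 and 0.167 to 1.0 for the other 7.

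The number of peaks in the windows went with list length. LSK+ cells had 72 and 31 peaks there (WT) and 90 and 70 (XistΔ/Δ), and LSK- cells had 82 and 51 (WT) and 121 and 75 (XistΔ/Δ). Per 10000 peaks of the list this was 11.4, 10.4, 10.9 and 11.1 in the LSK+ libraries and 11.5, 13.6, 13.2 and 12.0 in the LSK- libraries. Every LSK- value was thus above every LSK+ value, with a mean difference of 1.64 (p = 0.0556, exact permutation test, two-sided, the smallest p possible). With the strongest 29829 peaks of each list the difference was 0.587 (p = 0.5, exact permutation test) and the values overlapped. Between genotypes the difference was 0.086 (p = 0.833, exact permutation test).

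**Figure D5:**
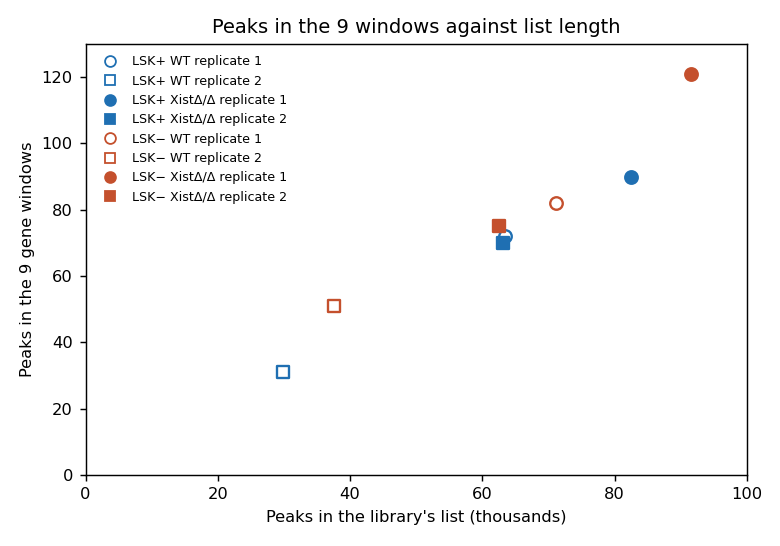
Peaks in the 9 gene windows (vertical axis) against the peaks in each library's list (horizontal axis). Each point is 1 library, and the counts run from 31 in LSK+ WT replicate 2 to 121 in LSK- XistΔ/Δ replicate 1, the shortest and longest lists.

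Promoters of other genes of these pathways were examined by the same rule. Of all regions tested, 4.96% differed between cell types without the block and 29.0% with it. With the block 13.8% were higher in LSK- and 15.1% in LSK+. The counts below stand beside these shares and are no result about the pathways as sets. Of 21 genes of the Ras and MAP kinase cascade 20 could be tested, and 0 differed between cell types without the block in limma, while 2 were higher in LSK- with it. These were the Ras-family exchange factor gene Rasgrp2 (log2 difference 0.58, adjusted p 0.379 without and 0.0152 with the block) and the kinase gene Mapk3 (0.66, 0.288 and 0.00586). All 21 had a promoter peak in all 8 libraries, and the mean percentile was higher in LSK- at 19, beside 69.5% of protein-coding genes with such a peak. By normalized pileup 13 of the 20 were higher in LSK- and 7 in LSK+, so the percentile count depends on the measure. Rasgrp2 kept its blocked call in 4 and Mapk3 in 5 of the 8 fits without single libraries. Of 18 Jak and Stat pathway genes 17 were tested, and the mean percentile was higher in LSK+ at 10 and in LSK- at 7. Stat4, a transcription factor activated by Jak kinases (-1.22, adjusted p 0.0262), and Socs3, a feedback inhibitor of Jak kinases (-1.02, adjusted p 0.0233), were higher in LSK+ without the block in limma and with it (adjusted p 5.38e-06 and 1.8e-06). With the block Stat5a (-0.32, adjusted p 0.0493) was also higher in LSK+, and Stat5b (0.60, adjusted p 0.021) and Pias1 (0.63, adjusted p 0.00681) were higher in LSK-, and these calls held in 2, 3 and 4 of the 8 blocked fits without single libraries. Of 7 receptors all were tested, with the mean percentile higher in LSK+ at 4 and in LSK- at 3. The erythropoietin receptor Epor was higher in LSK- (1.57, adjusted p 0.0203 without and 4.39e-08 with the block in limma), and with the block Flt3 was higher in LSK+ (-0.86, adjusted p 0.000537, lost without LSK- WT replicate 1). Without single libraries, the unblocked calls held in 2 of 8 fits for Stat4, 1 of 8 for Socs3 and 3 of 8 for Epor, and all 3 were lost without LSK- XistΔ/Δ replicate 1 or LSK+ WT replicate 1, while their blocked calls held in all 8. None of the promoters tested in these 3 lists passed between genotypes in either fit, where 0.00468% (without the block) and 0.14% (with it) of all regions did.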

How the data were processed

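ATAC-seq peak lists of 8 libraries were used. The authors trimmed reads with Trim Galore, aligned them to mm10 with Bowtie2 2.3.5.1, removed mapping quality under 30 and mitochondrial reads with SAMtools 1.10, and called peaks per library with MACS2 2.2.7.1 at q of 0.01 on paired-end fragments. No control, duplicate removal or Tn5 shift is given in the sources used here, so repeated PCR fragments may count more than once. The deposited columns give the fold enrichment over local background, a ratio made by the authors' MACS2, the -log10 p and -log10 q, the summit offset, and a score that follows the -log10 q. The score was not used further.

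Peaks were ranked by -log10 p within a list, and the summit pileup was solved from fold and -log10 p as a whole number of fragments, which succeeded for 100% of peaks in all 8 lists. Genes came from GENCODE vM21. The 20 chromosomes' last peaks ended within the GRCm38.p6 chromosomes, from which sequences were read. limma 3.58.1 in R 4.3.3 fitted 4 group means with a trend, without a block. Single values per library were compared by two-sided exact permutation tests within the other factor (36 assignments, smallest p 0.0556). Replicate number was taken to pair the libraries because deviations of the same number correlated in all 6 pairs of groups, from 0.358 to 0.697, and blocked values stand beside results they change. All 9 genes were described with their promoter region, the 2 strongest distal regions, the regions called by limma and those with peaks in 1 cell type or genotype only. Regions called only with the block were described because replicate number was taken as a pairing, which the labels do not state. The genes, the pathway and marker lists and the letters searched were chosen with earlier results of these data known. Some genes of the pathway and marker lists are not reported here and are in none of the lists' counts. Read counts per peak were not analysed here. Alternatives were other scalings, ranks, thresholds, windows and single libraries left out. The steps were tested on simulated data.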

Additional observations from a re-analysis of the deposited data

How the results depend on the processing

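Depth limits what the lists can show: a region without a peak may hold fragments below the caller's threshold, and intervals cover the spread between 2 libraries a group. Of the 25 regions, 0 were called between cell types without the replicate block, 9 with the block and 1 with median scaling. When regions with a peak in at least 4 libraries were tested, with missing values set to the library's lowest pileup, 11 of 71 were called, beside 16% of all 60447. That filter lets in regions through the group in which they are listed, so its calls are no support. With log2 fold enrichment and without any single library 0 of the 25 were called, and at -log10 q of at least 5, where regions were merged anew, the count was also 0. With the block and without single libraries, an alternative chosen after seeing the data (as was leaving out libraries for the pathway promoters), the count of the 25 ran from 5 to 12 between cell types, where 13.7% to 31.8% of all regions were called, and was 0 between genotypes. Between genotypes, within either cell type and for the interaction, 0 were called in every alternative.

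Over all regions, the 1059 called between cell types became 6184 with the block, 9693 with peaks in at least 4 libraries and 0 with log2 fold enrichment. Without single libraries the count ran from 1 (without LSK- XistΔ/Δ replicate 1) to 1298, and it was 3 without LSK+ WT replicate 1. The 1 called between genotypes became 30 with the block and 0 with fold enrichment, median scaling or 4 libraries, and 1 to 2 without single libraries. Within LSK+ the 0 became 20 with the block and 0 to 1 without single libraries. Within LSK- the 1 became 6 with the block, 0 with fold enrichment or median scaling, and 1 to 2 without single libraries. For the interaction the 1 became 2 with the block, 0 with fold enrichment, median scaling or 4 libraries, and 1 to 2 without single libraries. The cause of these shifts was not tested.

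Sign changes arose only at differences that passed no test. Between cell types, the log2 difference of the Nras promoter became 0.0216 with fold enrichment and 0.15 with median scaling, and that of the Hras promoter became -0.105 with fold enrichment. Between genotypes, that of the Cbl promoter became -0.0547 and -0.0467 with those alternatives, and that of the Jak2 promoter became -0.0439 with fold enrichment. Without single libraries the cell type difference ran from -0.081 to 0.0492 at Nras and from -0.00309 to 0.128 at Jak1. The genotype difference ran from -0.00481 to 0.127 at Nras, -0.286 to 0.0718 at Ptpn11, -0.0778 to 0.249 at Cbl, -0.117 to 0.0141 at Jak1, -0.225 to 0.522 at Jak2 and -0.225 to 0.115 at Jak3.

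For percentiles restricted to the strongest 29829 peaks, the cell type difference at Nras became -1.02, and the genotype differences became -8.54 at Nf1, -3.94 at Ptpn11, -0.37 at Jak1 and -14.1 at Jak3. With ranking by fold the cell type difference at Hras became -3.3. Without single libraries it ran from -1.8 to 2.11 at Nras, -0.0426 to 1.85 at Hras and -0.409 to 2.66 at Jak1, and the genotype difference from -0.866 to 0.787 at Cblb and -0.0251 to 3.04 at Jak1. The genotype difference in peaks per 10000 of the list became -0.129 at -log10 q of at least 5, and -0.426 to 0.598 without single libraries. Neither the permutation test used nor paired permutations in place of the block, with smallest possible p of 0.0556 and 0.125, can pass 0.05, so they give no calls.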
